A study of Mus musculus with 12 samples.

Results

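Expression of 33 genes that encode enzymes of pyruvate entry, of the tricarboxylic acid (TCA) cycle and of the breakdown of branched-chain amino acids (BCAA) was examined in the inferior vena cava (IVC) of mice after creation of an arteriovenous fistula (AVF). The genes were taken by symbol from the count table, which held 55414 genes, and all 33 were among the 15912 genes that were sufficiently expressed to be tested. They comprised 5 genes of pyruvate entry, 13 genes of the TCA cycle, 4 genes of the steps that leucine, isoleucine and valine share, 5 genes of the leucine arm, 5 genes of the valine arm with the propionate steps, and Dhtkd1 of lysine and tryptophan breakdown. Their lowest count in any library was 32 (Dhtkd1), so no value of these 33 genes rests on a few reads. Some marker and other pathway genes discussed below had fewer counts, and some markers had none in some libraries.

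RNA-seq was performed on the IVC of 12 wild-type C57BL/6J mice of 10 weeks, with 1 library per mouse, on postoperative day 7. The AVF group (n = 6) had a needle puncture through the infrarenal aorta into the IVC, and the sham group (n = 6) had the same operation without the puncture. Both groups held 3 male and 3 female mice. The authors divided the AVF group by its expression pattern into nAVF (samples #04, #06, #07 and #11) and OUT (samples #05 and #09), a division that the sample labels do not give, so the OUT samples are described by their values and were not tested as a group.

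Pyruvate enters the mitochondrial matrix and is converted to acetyl-CoA by the pyruvate dehydrogenase complex, or to oxaloacetate by pyruvate carboxylase. The TCA cycle oxidizes acetyl-CoA and feeds electrons to the respiratory chain, while the carbon skeletons of leucine, isoleucine and valine are oxidized in the same compartment and end as acetyl-CoA or succinyl-CoA. These enzymes are abundant in brown fat, heart and skeletal muscle, and BCAA breakdown is a known feature of fat cells of both the brown and the white type.

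The libraries held 15177881 to 22717423 counts. Sample #07 differed from the others in that 46.0% of its counts came from genes of ribosomal RNA, against 2.39% to 12.6% in the other 11 libraries. The defining genes of a vein wall, Myh11 and Acta2 of smooth muscle and Pecam1 and Cdh5 of endothelium, were detected in all 12 libraries. Some libraries also held transcripts of other tissues: the summed level of 6 hepatocyte genes was 2415 normalized CPM (counts scaled to library size) in #05 and 7300 CPM in #09 but at most 4.74 CPM in the other libraries, the 6 cardiomyocyte genes summed to 874 CPM in the sham sample #19, and the 5 skeletal muscle genes summed to 1395 CPM in the sham sample #23. The 3 kidney genes had no counts in any library. In bulk tissue, fewer cells of a type and less RNA per cell cannot be told apart.

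To determine differences between the sham and AVF groups, quasi-likelihood tests were run in edgeR over all 15912 genes, with Benjamini-Hochberg adjustment of the p values. At an adjusted p value under 0.05, 8 of the 33 genes were lower in AVF, where 5.13% of all tested genes were lower. The 8 genes were Idh3a, Idh3b, Idh3g, Ogdh, Dlst, Suclg1, Sucla2 and Pccb, and 7 of them belong to the span of the TCA cycle from isocitrate to succinate. No gene was higher by this test, where 8.63% of all tested genes were, none had an unadjusted p value under 0.05 in that direction, and DESeq2 also found 0. Idh3a, Idh3b, Suclg1 and Sucla2 fell at least 2-fold and were thus differentially expressed genes (DEG), where 1.4% of all tested genes were DEG with lower expression. The log2 fold change was negative for 30 of the 33 genes, with a median of -0.46, whereas it was negative for 51.9% of all tested genes, with a median of -0.01.

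**Figure D1:**
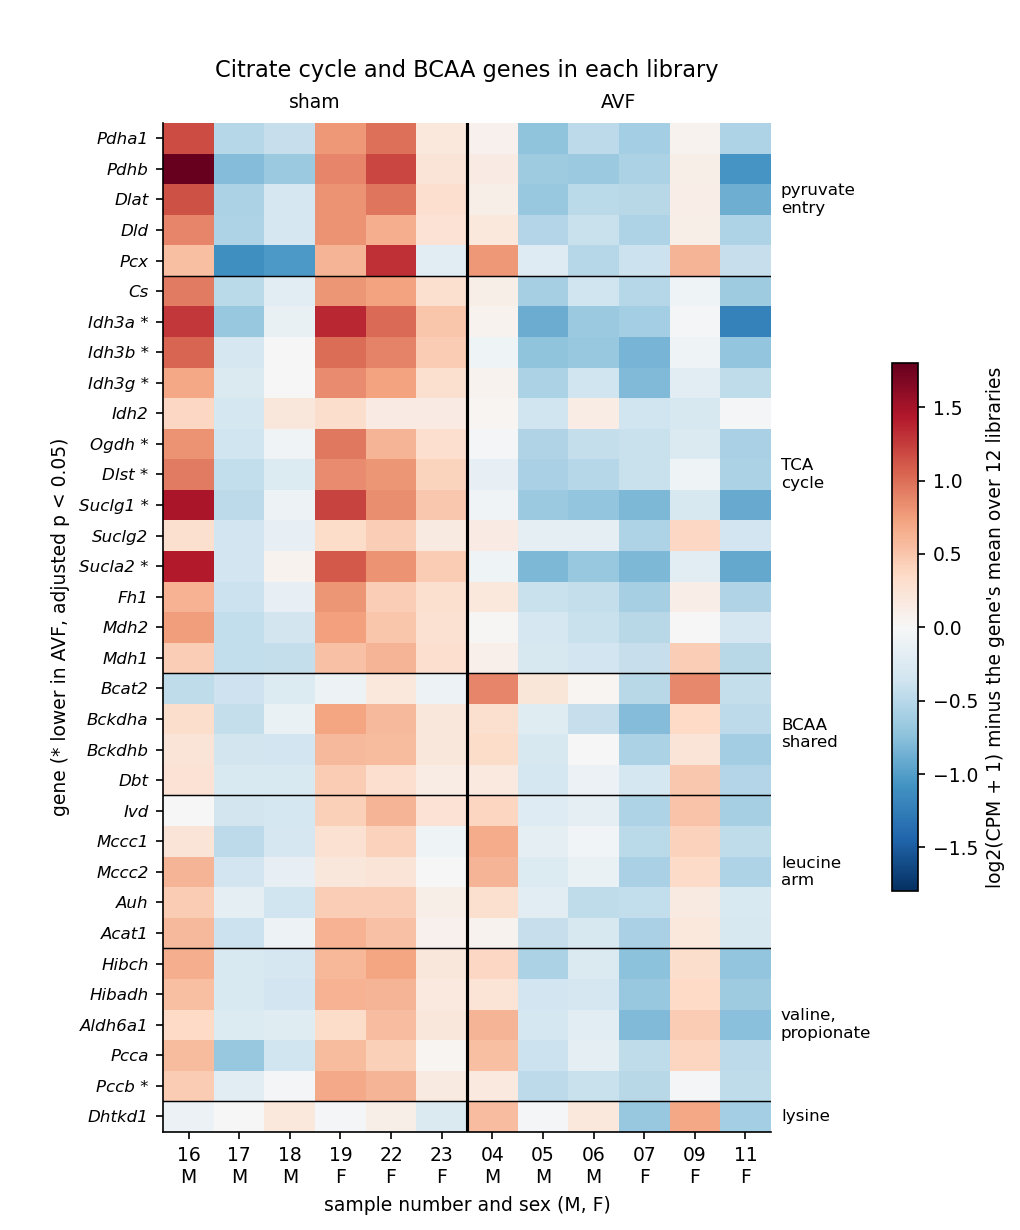
Expression of the 33 genes (rows, by pathway step) in the 6 sham and 6 AVF libraries (columns, by sample number and sex), as log2(CPM + 1) minus the mean of each gene over the 12 libraries. Red is above and blue below that mean; the 4 sham samples #16, #19, #22 and #23 are red over nearly all TCA cycle genes, the sham samples #17 and #18 are blue like most AVF samples, and #04 and #09 are the reddest AVF samples in the BCAA rows.

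No gene separated the groups completely: 0 of the 33 genes had every AVF library below every sham library, a pattern seen in 1.51% of all tested genes. The overlap came from the same libraries in nearly every gene. Sham samples #17 and #18 were the 2 lowest sham libraries in 30 of the 33 genes, and #04 and #09 were the 2 highest AVF libraries in 32. For 15 of the 18 genes of pyruvate entry and the TCA cycle, at least 4 sham libraries lay above the highest AVF library, and this was so for 0 of the 14 BCAA genes. The share of all tested genes with that pattern was not counted. As these genes vary together over the same libraries, the 15 genes are not 15 separate observations.

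Among the TCA cycle genes, those of the NAD-dependent isocitrate dehydrogenase fell together. This enzyme catalyzes a rate-controlling oxidation of the cycle, with Idh3a as its catalytic subunit and Idh3b and Idh3g as partner subunits. The normalized level of Idh3a had a lowest, median and highest value of 74.9, 112 and 183 CPM in AVF, and of 108, 303 and 450 CPM in sham. Its AVF and sham libraries overlapped, because sham samples #17 (108 CPM) and #18 (159 CPM) were in the range of AVF. The log2 fold change of Idh3a was -1.22 (SE 0.34, adjusted p = 0.0347).

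Idh3b was at 62.6, 68.7 and 107 CPM (lowest, median, highest) in AVF and at 91.1, 182 and 233 CPM in sham, where 5 of 6 sham libraries were above every AVF library. Its log2 fold change was -1.10 (SE 0.24, adjusted p = 0.0138). Idh3g was at 39.8, 52.0 and 72.3 CPM in AVF and at 57.9, 98.9 and 126 CPM in sham, and 4 of 6 sham libraries were above every AVF library. Idh3g fell by 0.81 on the log2 scale (SE 0.20, adjusted p = 0.0221). The NADP-dependent mitochondrial enzyme Idh2, which makes NADPH from the same substrate, had mean levels of 38.3 ± 5.91 CPM in AVF and 47.3 ± 7.39 CPM in sham (SD, n = 6 each), a log2 fold change of -0.30 (95% interval -0.58 to -0.03) that did not pass the adjusted test (adjusted p = 0.125). Per kilobase of transcript, the sham mean was 113 CPM for Idh3a, 106 CPM for Idh3b and 59.9 CPM for Idh3g, against 27.1 CPM for Idh2.

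The next complex of the cycle, 2-oxoglutarate dehydrogenase, was lower in 2 of its subunits, Ogdh and Dlst. Ogdh, the decarboxylating subunit, was at 149, 169 and 221 CPM (lowest, median, highest) in AVF and at 174, 310 and 434 CPM in sham. Dlst, the succinyl-transferring core, was at 98.9, 108 and 140 CPM in AVF and at 109, 226 and 283 CPM in sham. In both genes 4 of 6 sham libraries were above all AVF libraries and 2 were not. The log2 fold change was -0.81 for Ogdh (SE 0.20, adjusted p = 0.0234) and -0.85 for Dlst (SE 0.23, adjusted p = 0.0297). Dld, the subunit that this complex shares with the pyruvate and BCAA complexes, was at 180 ± 45.4 CPM in AVF and 282 ± 106 CPM in sham (SD, n = 6 each), and its log2 fold change of -0.65 was not called (adjusted p = 0.0983).

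The subunits of succinyl-CoA ligase did not behave alike. This enzyme pairs the alpha subunit Suclg1 with 1 of 2 beta subunits: Sucla2, which makes ATP, or Suclg2, which makes GTP. Suclg1 was at 45.6, 53.3 and 83.0 CPM (lowest, median, highest) in AVF and at 62.4, 138 and 241 CPM in sham. Sucla2 was at 108, 121 and 193 CPM in AVF and at 161, 320 and 551 CPM in sham. For Suclg1, 4 sham libraries were above all AVF libraries, and for Sucla2 there were 5, with #17 as the exception. These genes had the largest log2 fold changes of the 33, at -1.28 for Suclg1 (SE 0.30, adjusted p = 0.0176) and -1.26 for Sucla2 (SE 0.28, adjusted p = 0.0132).

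Suclg2 was at 52.1, 68.6 and 101 CPM (lowest, median, highest) in AVF and at 60.5, 90.7 and 105 CPM in sham, so that the groups overlapped over nearly their whole range. Its log2 fold change was -0.23 (95% interval -0.61 to 0.14, adjusted p = 0.372). The ratio of Sucla2 to Suclg2, formed within each library, was 2.25 in #04, 1.68 in #05, 1.86 in #06, 2.23 in #07, 1.76 in #09 and 1.77 in #11, and in sham it was 5.81 in #16, 2.66 in #17, 3.06 in #18, 4.51 in #19, 3.43 in #22 and 3.24 in #23. Every sham library was thus above every AVF library in this ratio, including #17, which overlapped with AVF in the levels of both genes, and #18, which overlapped in Suclg2. The mean log2 ratio was lower by 0.93 in AVF, that is, -0.93 on the log2 scale. The ratio was chosen after the levels of the subunits had been seen, with Sucla2 lower and Suclg2 little changed. A lower ratio in AVF was thus largely set beforehand, and no p value is given for it. How many other pairs of genes separate the groups in this way was not counted. Per kilobase of transcript, the mean level in sham was 112 CPM for Sucla2, 94.8 CPM for Suclg1 and 25.0 CPM for Suclg2, and in AVF it was 46.8, 38.9 and 21.2 CPM, respectively.

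**Figure D2:**
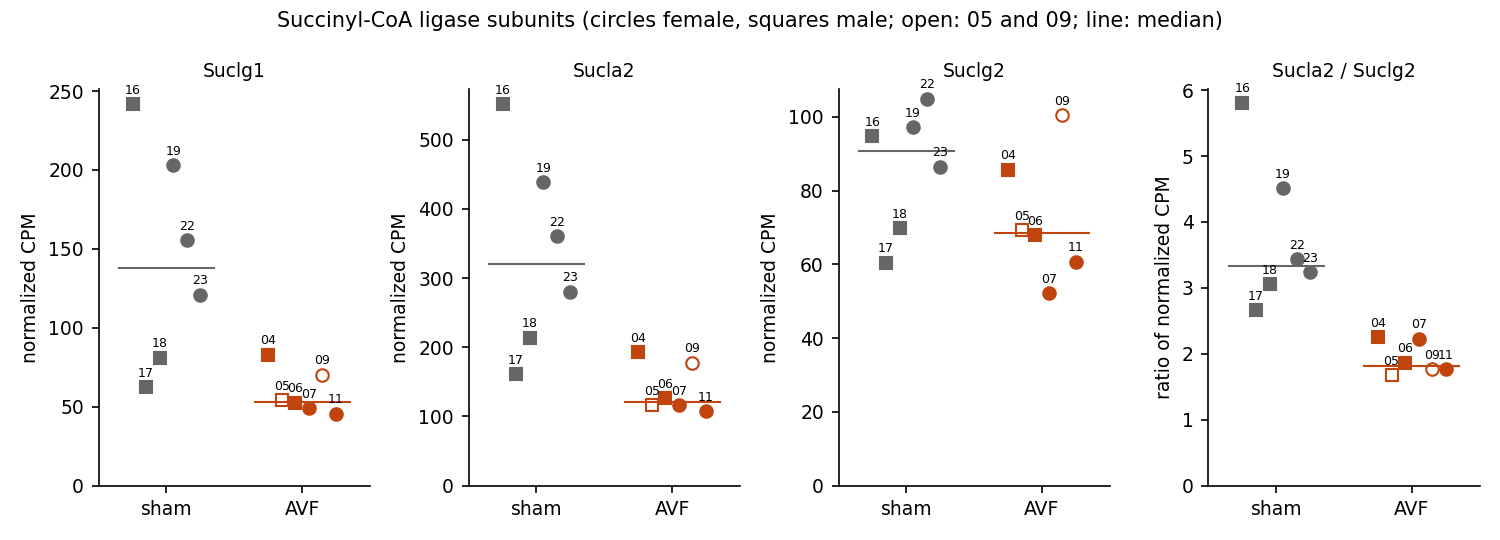
Normalized CPM of the 3 subunits of succinyl-CoA ligase, and the ratio of Sucla2 to Suclg2 (vertical axes), in each sham and AVF library; labels give the sample number, circles are female, squares are male, open symbols are #05 and #09, and lines are group medians. Suclg2 overlaps between the groups, whereas the ratio is 1.68 to 2.25 in AVF and 2.66 to 5.81 in sham.

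The remaining 4 genes of the cycle all had negative log2 fold changes and none was called. Cs, citrate synthase, was the nearest to the threshold, at 248 ± 54.6 CPM in AVF and 418 ± 153 CPM in sham (log2 fold change -0.75, adjusted p = 0.0531). Fh1, fumarase, and Mdh2, mitochondrial malate dehydrogenase, had log2 fold changes of -0.58 and -0.56 (adjusted p = 0.0837 and 0.0847). Mdh1, the cytosolic malate dehydrogenase of the malate-aspartate shuttle, was at 171 ± 47.2 CPM in AVF and 220 ± 65.7 CPM in sham (log2 fold change -0.36, 95% interval -0.84 to 0.12). The values after ± are SD over 6 libraries. Over the 13 TCA cycle genes the median log2 fold change was -0.81, with a range from -1.28 to -0.23.

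None of the 5 genes of pyruvate entry passed the test, although 3 of them, Pdha1, Pdhb and Dlat of the pyruvate dehydrogenase complex, had log2 fold changes in the range of the called TCA genes. Pdhb, the beta subunit of the decarboxylase, had the largest at -1.13 (95% interval -2.03 to -0.23, adjusted p = 0.0854), with levels of 87.3, 120 and 204 CPM (lowest, median, highest) in AVF and of 106, 276 and 649 CPM in sham. Pdha1, its alpha subunit, was at -0.85 (adjusted p = 0.0706), and Dlat, the acetyl-transferring core, was at -0.87 (adjusted p = 0.0672). The sham SD of Pdhb was 209 CPM around a mean of 307 CPM, as sham samples #16 and #17 differed from 649 to 106 CPM. Pcx, pyruvate carboxylase, which also supplies oxaloacetate for fat synthesis, was at 175 ± 75.4 CPM in AVF and 203 ± 130 CPM in sham (SD, n = 6 each), with a log2 fold change of -0.21 (95% interval -1.10 to 0.67).

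Of the 14 BCAA genes, 1 was called lower, Pccb, beside 5.13% of all tested genes, so that the count was near that share. A negative log2 fold change was found in 12 of the 14, beside 51.9% of all tested genes. Pccb encodes the beta subunit of propionyl-CoA carboxylase, which takes up the propionyl-CoA of valine and isoleucine. It was at 55.4, 58.4 and 89.4 CPM (lowest, median, highest) in AVF and at 68.9, 98.7 and 128 CPM in sham, and 3 of 6 sham libraries were above every AVF library. Its log2 fold change was -0.58 (SE 0.17, adjusted p = 0.0436). The alpha subunit of the same enzyme, Pcca, was at 45.3 ± 15.3 CPM in AVF and 52.2 ± 17.5 CPM in sham (SD, n = 6 each), with a log2 fold change of -0.21 (95% interval -0.76 to 0.35, adjusted p = 0.624). The median log2 fold change of the 14 genes was -0.29, beside -0.81 for the 18 genes of pyruvate entry and the TCA cycle; the difference between these lists was not tested.

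The steps shared by all 3 BCAA were not called. Bcat2, the mitochondrial aminotransferase that opens the pathway, was the only member with a log2 fold change above 0.2, at 0.46 (95% interval -0.07 to 0.99, adjusted p = 0.217). Its values were 67.7 CPM in #04 and 67.0 CPM in #09, above every other library, and 25.3 to 42.2 CPM in the other 4 AVF samples, which overlapped with 26.0 to 41.5 CPM in sham. Bckdha, Bckdhb and Dbt, the decarboxylase subunits and the core of the branched-chain ketoacid dehydrogenase, had log2 fold changes of -0.42, -0.32 and -0.19 (adjusted p = 0.24, 0.341 and 0.518). The Bckdha interval was -0.93 to 0.09, so that a 2-fold decrease, a log2 fold change of -1, was outside it.

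In the leucine arm the median log2 fold change was -0.20. Mccc1, the biotin-carrying subunit of methylcrotonyl-CoA carboxylase, had the smallest difference of all 33 genes: 43.7, 56.7 and 98.5 CPM (lowest, median, highest) in AVF and 44.0, 65.3 and 82.3 CPM in sham, with a log2 fold change of 0.01 (95% interval -0.47 to 0.48). Its partner Mccc2 was at 17.6, 23.6 and 41.7 CPM in AVF and at 21.0, 28.8 and 41.6 CPM in sham (log2 fold change -0.15, 95% interval -0.64 to 0.35). The groups overlapped over nearly their full range in both genes. Ivd, which oxidizes isovaleryl-CoA, was at -0.20, Auh, which hydrates methylglutaconyl-CoA, was at -0.33, and Acat1, the mitochondrial thiolase that also serves isoleucine and ketone bodies, was at -0.46 on the log2 scale, the last with an adjusted p value of 0.114.

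The other valine genes were between -0.52 for Hibch, which releases hydroxyisobutyrate, and -0.25 for Aldh6a1, which forms propionyl-CoA, with Hibadh, the dehydrogenase between them, at -0.45; their adjusted p values were 0.18, 0.525 and 0.204. Aldh6a1 was the most abundant BCAA gene per kilobase of transcript, at a mean of 77.1 CPM in AVF and 92.0 CPM in sham. Dhtkd1, which forms glutaryl-CoA from the 2-oxoadipate of lysine and tryptophan, was at 3.45, 6.59 and 10.6 CPM (lowest, median, highest) in AVF and at 4.98, 6.13 and 7.15 CPM in sham. All sham values of Dhtkd1 were inside its AVF range, and its log2 fold change was 0.14 (95% interval -0.42 to 0.70).

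**Figure D3:**
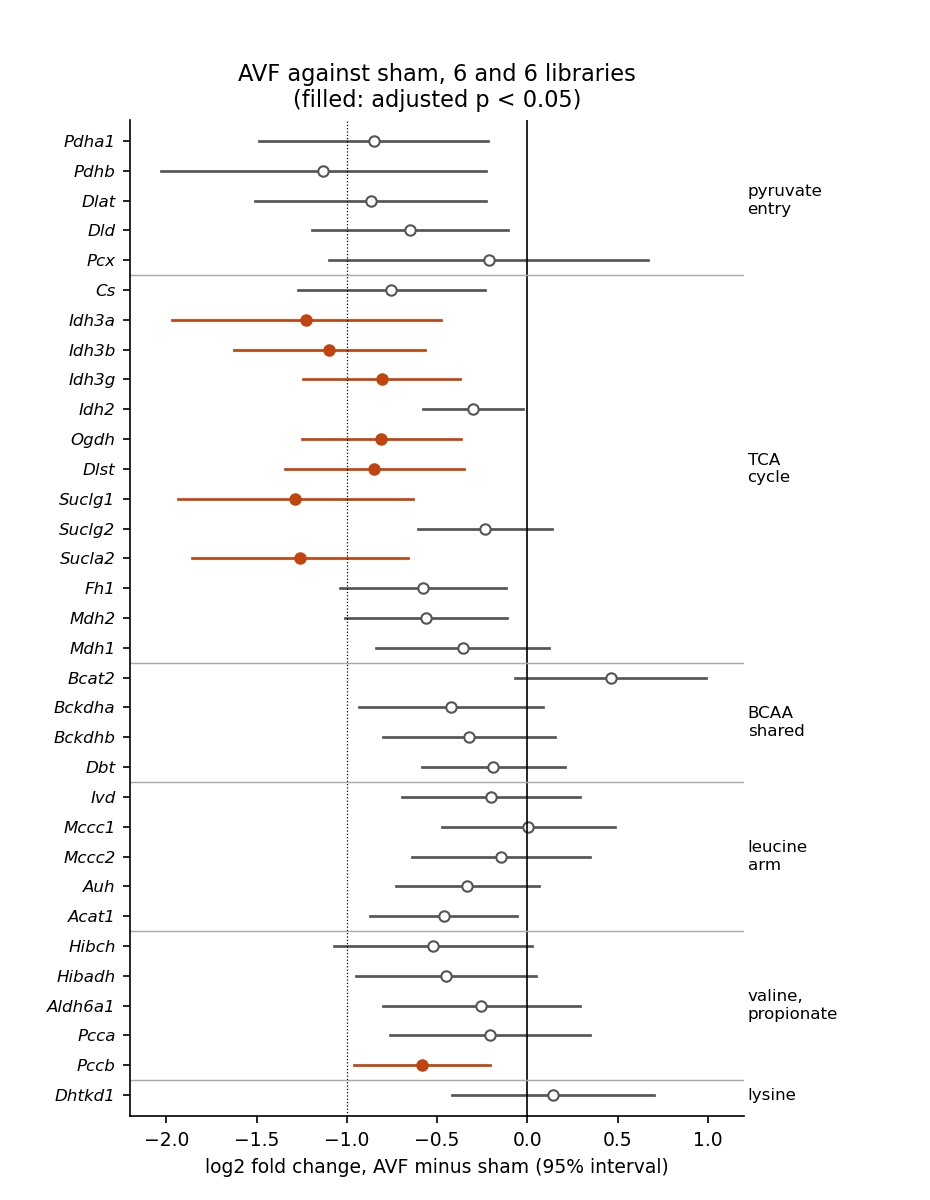
Log2 fold change of each gene, AVF minus sham (horizontal axis; 6 and 6 libraries), with its 95% interval, by pathway step; filled points have an adjusted p value under 0.05 and the dotted line marks a 2-fold decrease. The called genes lie between -1.28 (Suclg1) and -0.58 (Pccb), and the points of the BCAA genes lie between -0.58 and 0.46.

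The calls depended on single libraries to different degrees. With each of the 12 libraries left out in turn, Idh3b, Suclg1 and Sucla2 were called in all 12 fits, Idh3g in 11, Ogdh in 8, Dlst in 5, and Idh3a and Pccb in 4. Of the genes examined, 4 were called lower without #05, #11 or #16, 5 without #06, #19 or #23, and 3 without #22. The count was 13 without #18 and 16 without #17. Over all tested genes, 817 were called lower in the main fit. That number was 420 without #05, 446 without #11, 468 without #16, 499 without #06, 432 without #23 and 415 without #22. It was 821 without #19, 806 without #18 and 766 without #17. Without #19 and #23, the sham libraries with cardiac and skeletal muscle transcripts, edgeR called 0 of the genes examined. Of these genes, 12 had a lower level with an unadjusted p value under 0.05. The log2 fold change of Sucla2 was then -1.19 (adjusted p = 0.0514). Over all tested genes, 271 were called lower in that fit.

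Sequence around the start sites was searched on both strands for the letters of elements bound by regulators of mitochondrial genes, in the 30 genes with an entry among the RefSeq promoters (assembly GRCm38.p6, an earlier build than that of the counts; 250 bases before to 50 after the start). The core letters of the estrogen-related receptor element, AAGGTCA, occurred in 0 of 30, beside 3.13% of the promoters of tested genes and 4.66% of all promoters. The letters of the NRF1 element, CGCNTGCGC, occurred in 4 of 30 genes (13.3%), Dld, Sucla2, Hibadh and Pccb, beside 12.4% of the promoters of tested genes and 6.47% of all promoters, so that the share was near the background. The letters of the ETS element, CCGGAAGT, occurred in 1 of 30 genes (3.33%), Dlst, beside 7.5% of the promoters of tested genes, and those of the YY1 element, AAGATGGC, in 2 of 30 (6.67%), Idh3g and Bckdha, beside 4.34%. The NRF1 matches in the genes called lower, Sucla2 and Pccb, are given to show their form, with 10 bases on either side, 5′ to 3′ on the strand of the gene and with the NRF1 letters in capitals (on the opposite strand in Pccb). They lie at chr14:73552760-73552788 (+ strand) for Sucla2 and at chr9:101034935-101034963 and chr9:101034901-101034929 (- strand) for Pccb.
Sucla2: tgcgtctctgCGCCTGCGCggtgcccagg
Pccb, upstream match: cagcgacgacGCGCAGGCGcagactcgca
Pccb, downstream match: tacgctctctGCGCATGCGtcctgaggtg
Dld and Hibadh held the same letters and were not called.

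Other genes of these pathways were listed to see how far the pattern extended. Of 59 such genes, 9 were lower and 1 was higher in AVF, beside 5.13% lower and 8.63% higher of all tested genes. All 4 subunits of succinate dehydrogenase, the enzyme shared by the cycle and the respiratory chain, were lower, with log2 fold changes of -0.85 for Sdha, -0.83 for Sdhb, -0.57 for Sdhc and -0.84 for Sdhd (adjusted p = 0.0338, 0.0243, 0.048 and 0.0284). Idh1, the cytosolic isocitrate dehydrogenase, was at 0.13 on the log2 fold scale (adjusted p = 0.571). Me3, the mitochondrial NADP-dependent malic enzyme, was at 2.09, 2.46 and 2.69 CPM in AVF and at 3.48, 5.69 and 11.2 CPM in sham, with no overlap (log2 fold change -1.39, adjusted p = 0.00449).

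The kinases that switch off the pyruvate dehydrogenase complex moved in both directions. Pdk4, which is induced by fasting and fatty acids, was at 84.6, 137 and 204 CPM (lowest, median, highest) in AVF and at 211, 329 and 1045 CPM in sham, and the groups did not overlap. Its log2 fold change was -1.71 (SE 0.39, adjusted p = 0.0151). Pdk2 was also lower, at -0.76 (adjusted p = 0.0252), and Pdk3 was higher, at 0.58 (adjusted p = 0.0161), whereas Pdk1 was not called (log2 fold change -0.60, adjusted p = 0.159). Of the 15 other BCAA genes, Mcee, the epimerase after propionyl-CoA carboxylase, was lower (log2 fold change -0.55, adjusted p = 0.0293) and 14 were not called, among them the kinase Bckdk and the phosphatase Ppm1k of the branched-chain ketoacid dehydrogenase, with log2 fold changes of -0.35 and -0.05. None of the 3 BCAA carriers of the cell membrane and none of the 5 genes that attach lipoate or biotin to these enzymes was called by edgeR.

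Of 9 regulators of mitochondrial genes, Ppara, a receptor for fatty acids, was called, with 2.86, 9.00 and 14.5 CPM (lowest, median, highest) in AVF and 8.30, 23.9 and 37.0 CPM in sham (log2 fold change -1.45, adjusted p = 0.029). The coactivators Ppargc1a and Ppargc1b had log2 fold changes of -1.76 and -1.05 that were not called (adjusted p = 0.0573 and 0.0575), and so had the receptors Esrra and Esrrg, at -0.75 and -0.99 (adjusted p = 0.0741 and 0.0634). Nrf1, Gabpa and Tfam, regulators of respiratory chain and mitochondrial DNA genes, had log2 fold changes of 0.24, 0.03 and -0.09, and Klf15, a regulator of BCAA genes, was at -0.20 (adjusted p = 0.486); none of these 4 was called.

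The sum of the brown fat markers was highest in the same 4 sham libraries as the genes of pyruvate entry and the TCA cycle. The summed level of 6 brown adipocyte genes (Ucp1, Cidea, Elovl3, Dio2, Cox7a1 and Cox8b) was 250 CPM in #04, 109 in #05, 84.8 in #06, 280 in #07, 321 in #09 and 44.4 in #11, and in sham it was 897 CPM in #16, 104 in #17, 200 in #18, 1752 in #19, 1140 in #22 and 537 in #23. The same 4 sham libraries, #16, #19, #22 and #23, were thus above all AVF libraries in this sum and in 15 of the 18 genes of pyruvate entry and the TCA cycle. Of these, #19 and #23 also held cardiac or skeletal muscle transcripts, as given above. Ucp1, Cidea, Cox7a1 and Cox8b each had these 4 sham libraries above all AVF libraries, but Elovl3 and Dio2 did not. Elovl3 was at 9.25 CPM in #09, above 3.73 CPM in #16 and 3.58 CPM in #23. Dio2 was at 148 CPM in #07 and 124 CPM in #09, above 113 CPM in #16 and 118 CPM in #23. In sample #07 the brown fat sum was above #17 and #18, as were Ucp1, Elovl3 and Dio2. Cidea, Cox7a1 and Cox8b were below both. They were at 20.3, 2.48 and 11.0 CPM in #07. In #17 they were at 42.8, 7.44 and 17.5 CPM, and in #18 at 68.3, 11.1 and 25.9 CPM. The mean log2 level of the 18 genes was 6.57 in #07, below 6.65 in #17 and 6.90 in #18. Cidea, Cox7a1 and Cox8b were called lower in AVF (log2 fold changes -2.21, -2.82 and -1.99), and 3, with Ucp1 at -2.83 and an adjusted p value of 0.079, were not. No defining gene of brown fat was at 0 in sham, where Ucp1 was at 22.9 to 1088 CPM. The part of brown fat cells in the lower TCA cycle levels was not tested.

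The 5 general adipocyte genes (Adipoq, Plin1, Cidec, Lep and Retn) summed to 734, 979 and 1619 CPM (lowest, median, highest) in AVF and to 676, 1041 and 1568 CPM in sham, and none of the 5 was called by edgeR. In this sum the highest AVF libraries were #04 and #09, the same that were highest in 32 of the 33 genes. Adipoq, Plin1, Cidec and Retn each had #04 and #09 as the highest AVF libraries. Lep did not: among the AVF libraries it was highest in #06 (52.2 CPM) and lowest in #09 (4.33 CPM). The mean log2 level of the BCAA genes was 6.37 in #04 and 6.33 in #09, within the range of the 4 higher sham libraries (6.08 to 6.45). It was 5.38 to 5.75 in the other 4 AVF libraries and 5.62 and 5.71 in #17 and #18. For pyruvate entry and the TCA cycle, the mean log2 level was 7.23 in #04 and 7.16 in #09, below 7.43 to 8.07 in the 4 higher sham libraries. The part of general adipocyte content in these levels was not tested.

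Macrophage and dividing-cell markers were higher in AVF, with 4 of 4 and 3 of 3 genes called, and their sums did not overlap between the groups (689 to 1039 CPM in AVF against 341 to 584 CPM in sham for macrophages, 144 to 282 against 36.5 to 69.6 CPM for dividing cells). The 4 smooth muscle and 4 endothelial genes were not called. The 5 genes of sympathetic neurons summed to 105 to 577 CPM in AVF and 246 to 958 CPM in sham, with 0 called by edgeR. Their part in the result was not tested.

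**Figure D4:**
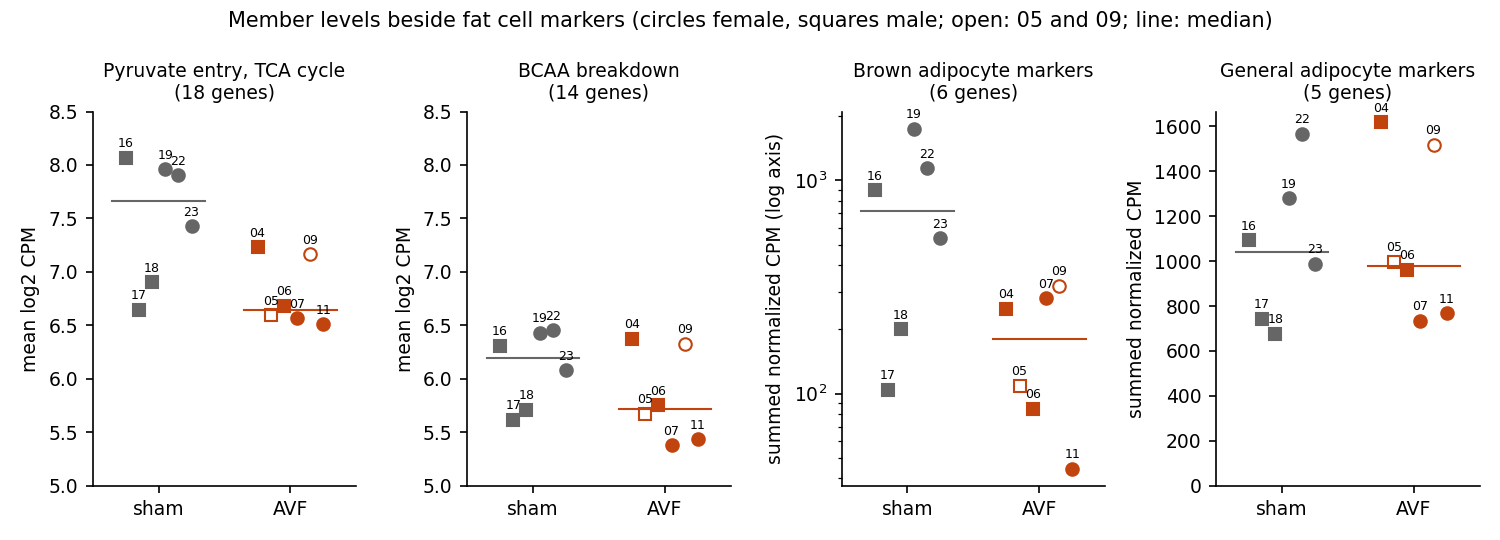
Mean log2 CPM of the 18 genes of pyruvate entry and the TCA cycle and of the 14 BCAA genes, and summed normalized CPM of 6 brown adipocyte markers (log axis) and 5 general adipocyte markers, in each sham and AVF library; labels, symbols and lines as in the plot of succinyl-CoA ligase. Sham samples #16, #19, #22 and #23 are above all AVF libraries in the first and the third panel but not in the second and the fourth.

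Without the OUT samples, the comparison of nAVF (n = 4) with sham (n = 6) called 2 of the 33 genes lower, Idh3b (log2 fold change -1.16, adjusted p = 0.0336) and Sucla2 (log2 fold change -1.30, adjusted p = 0.0375), where 2.05% of 15531 tested genes were lower. The log2 fold changes were close to those of all 6 AVF samples, with a median of -0.58 over the 33 genes, beside -0.03 over all tested genes. Of the 33 genes, 32 had a negative change. The adjusted p value of Suclg1 was 0.0513, and 17 of the 33 genes had an unadjusted p value under 0.05. For this comparison, the shares of all tested genes with a negative change or such an unadjusted p value are not given. DESeq2 and the exact test of edgeR each called 10 of the 33 genes lower in this comparison. Over all tested genes, the number called lower was 319 in the main fit, 943 with DESeq2 and 596 with the exact test. The main count of 2 ranged from 0 to 7 when 1 library was left out: it was 0 without #06, #07, #11, #16, #19 or #22, 1 without #23, 5 without #04 or #18, and 7 without #17. Over all tested genes, the number called lower in these fits was 82 (without #11) to 462 (without #18).

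The 2 OUT samples did not move together in these genes. Sample #05 was within the range of the 4 nAVF samples in 31 of the 33 genes and below it in Pdha1 and Dlst. Sample #09 was within that range in 23 genes and above it in 10, among them Dlat, Dlst, Suclg2, Mdh1 and 5 of the BCAA genes. In none of the 33 genes were both OUT samples above all nAVF samples, whereas 7.76% of all tested genes had that pattern. Sample #04 was the upper end of the nAVF range in the 32 genes where #04 and #09 were the 2 highest AVF libraries. The share of all tested genes with #09 above that range is not given. As given above, both OUT samples held hepatocyte transcripts, and #09 was among the AVF samples with a high sum of general adipocyte markers. The part of either in these levels was not tested.

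To determine whether the difference between AVF and sham depended on sex, the interaction of operation and sex was tested over 22163 genes. By edgeR, 0 of the 33 genes were called, as were 0% of all genes, and 1 gene, Bckdhb, had an unadjusted p value under 0.05 (edgeR adjusted p = 0.96); DESeq2 also called 0 of the 33. The interaction term was negative for all 33 genes, that is, the female AVF minus sham difference was the lower one, where 50.2% of all tested genes had a negative term. As these genes vary together over the same libraries, their common sign is not 33 separate observations. In the sham group, all 3 female sham samples were among the 4 higher sham libraries, and 2 of the 3 male sham samples were #17 and #18.

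Female sham mice had higher levels than male sham mice in 32 of the 33 genes, with 0 called by edgeR and 0 by DESeq2, where 0.0451% of all genes were called, and with 2 genes at an unadjusted p value under 0.05 (Bckdhb, log2 fold change 0.62, and Ivd, 0.67). The 32 genes vary together over the same libraries and are not 32 separate observations. The share of all genes with a higher level in female sham mice is not given. Between female and male AVF mice, 0 of the 33 genes were called by either tool, where 0.0226% of all genes were, and 0 had an unadjusted p value under 0.05. The log2 fold changes between the sexes in AVF were from -0.35 to 0.06. With 3 mice per sex, the 95% interval of the interaction was wide, for Sucla2 from -1.64 to 0.90 around -0.37.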

How the data were processed

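Per the labels and the study's methods, the authors purified poly-A RNA from the IVC of each mouse, made stranded libraries, trimmed the reads (Trimmomatic 0.39), aligned them to GRCm39 (STAR 2.7.7a) and deposited 1 table of expected counts per gene from RSEM 1.3.3, without normalization or a filter. Gene names, coordinates and transcript lengths were taken from GENCODE M39, of the same build but a later release than theirs. Of 55414 identifiers, 665 had no name.

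Expected counts were rounded, a gene was kept when 2 or more samples were above 1 CPM, and TMM normalization and quasi-likelihood tests were run in edgeR 4.0.16 (R 4.3.3, limma 3.58.1), with Benjamini-Hochberg adjustment over all tested genes. A standard error is the absolute log2 fold change divided by the root of the F statistic. Interaction and sex contrasts used 1 model of the 4 groups and genes with more than 12 counts in all. CPM were normalized with the TMM factors, and log2 levels had a prior count of 1. DESeq2 1.42.0, the exact test of edgeR, other filters and size factors, a sex covariate, a replicate block and left-out libraries served as alternatives. The fits were tested on simulated data.

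The 33 genes and all other lists were chosen with earlier results of these data known. Values were given for every gene called between AVF and sham and for the 3 with the smallest change, and other pathway genes were named when called, with the regulators and kinases given whatever their result. One gene was taken out of the other pathway lists after they were drawn up and is not reported here. Bcat2, the ratio of Sucla2 to Suclg2 and the uncalled genes with their values were chosen after these had been seen. Within groups, the chi-square per degree of freedom between libraries was 37.2 to 622 over 12 pairs, so no 2 libraries were the same. Depth of 15177881 to 22717423 counts set the level of 3 counts at 0.127 to 0.323 CPM.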

Additional observations from a re-analysis of the deposited data

Results flagged for a closer look

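Of 66 groups of 6 values (33 genes in AVF and in sham), 1 held a library that stood apart by Dixon's test, where chance alone gives about 1 in 20. This was Idh2 in the sham sample #17, at 33.8 CPM, with a gap to the nearest sham library (46.7 CPM) that took up 0.666 of the range on the log2 scale.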

How the results depend on the processing

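Results are given for the 33 genes. The number called lower between AVF and sham (8) was 7 to 12 with the exact test of edgeR, other size factors, other filters, unrounded counts, a sex covariate or without ribosomal RNA genes. It was 14 with DESeq2, 2 without #05 and #09, and 0 without #19 and #23 or without #05, #07 and #09, 2 settings chosen after seeing the data in which 12 and 7 genes were lower at an unadjusted p value under 0.05. With 1 library left out it was 3 to 16. Over all tested genes, the number called lower was 817 in the main fit and 1432 with DESeq2. That number was 319 without #05 and #09, 271 without #19 and #23, and 259 without #05, #07 and #09. It was 415 to 947 with 1 library left out. The number of DEG (4) was 4 or 5 with other tools and filters, 2 without #05 and #09, 0 in both settings chosen after seeing the data, and 2 (without #16) to 6 (without #17) with 1 library left out. The nAVF count (2) was 10 with the exact test and 10 with DESeq2, 0 without #19 and #23 and 0 without #05, #07 and #09, and 0 to 7 with 1 library left out. The cause of these changes was not tested, but settings without libraries hold fewer samples. No gene was called higher, and none by the interaction or between the sexes, in any setting run. The median log2 fold change was -0.38 to -0.59 in all settings.

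Same-numbered AVF and sham mice of a sex shared only a number: the correlation of their deviations from the group means was -0.169 to 0.191 over 6 pairs. With the number as a replicate block, 11 of the genes examined were called lower, the 8 and Pdha1, Dlat and Cs. In the comparison of nAVF with sham, 4 were called lower. Over all tested genes, the number called lower with the block was 676, against 817 in the main fit. For nAVF against sham it was 121 with the block, against 319 in the main fit.

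The sign changed in 3 genes, none of them called. Mccc1 was at -0.01 with the filter of more than 12 counts (log2 fold change -0.0053), at -0.0214 with the block, at -0.0018 without ribosomal RNA genes, at -0.0443 without #05 and #09, and at -0.162 to 0.105 with 1 library left out. Dhtkd1 was at -0.0243 without #05 and #09 and at -0.0289 to 0.285 with 1 library left out. Pcx was at -0.412 to 0.127 with 1 library left out.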
